A study of Mus musculus with 2 samples.

Results

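The genes described here are Hif1a and 9 genes of glycolysis, Slc2a1, Hk2, Pfkl, Aldoa, Gapdh, Pgk1, Eno1, Pkm and Ldha. They were taken by name from a count table of 32285 genes, where all 10 have a row, and are described in sorted microglia by cell state and by treatment. Glycolysis splits glucose into pyruvate in the cytosol and yields ATP without oxygen. HIF-1α, the protein of Hif1a, is degraded when oxygen is plentiful and, once stable, pairs with ARNT and binds short DNA elements at glucose transporter and glycolysis genes. Microglia around amyloid plaques enter a disease-associated state (DAM), and macrophages that are activated are known to lean on glycolysis.

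All mice carried the APPswe and PS1δE9 transgenes (PSAPP), which drive amyloid deposition, and both groups share them. From 9 to 10 months of age they received vehicle (VEH) or lemborexant (LEM, 30 mg/kg daily by oral gavage), an antagonist of the orexin receptors that is used as a sleep drug. The cortex and hippocampus of 1 hemisphere were dissociated and live cells sorted as CD45loCD11b+. For each treatment the cells of 5 mice, females and males, were combined into a single 10x 5′ library. The comparisons ask how the glycolysis genes and Hif1a differ between microglial states and between the treatments. Each treatment thus had 1 library without a replicate, no test of the treatment was possible, and the drug cannot be told apart from any other difference between the 2 pools.

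The VEH library held 18374 cells with a median of 5971 counts, and the LEM library 24392 cells with a median of 6034. Counts of unique molecular identifiers were summed over cells and divided by the total of those cells, to give CPM, the counts per 1000000. Brackets hold exact 95% intervals, which cover counting error only, since cells of a pool are not replicates. Cells were called female or male from sex-linked transcripts, which gave 5686 female and 9025 male cells in the VEH library and 8409 and 11223 in the LEM library. Female and male cells come from different mice of the same pool, and their difference is given below. It holds any effect of sex as well as spread between mice, and the number of mice of each sex is unknown. A difference in CPM over a whole library cannot tell more cells of a high state from more RNA per cell. All 8 microglial markers were present, at a summed 46276 CPM in VEH and 47140 in LEM, whereas choroid plexus markers were higher in LEM, at 1321 CPM against 437.6. The cells are named by numbers in the table, so that barcodes shared between the libraries could not be counted.

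A short sequence shared by HIF target genes, ACGTG or GCGTG on either strand, was searched in the 250 bases before each RefSeq transcription start (GRCm38.p6). The sequences of 6 members are shown because they span the range found, from 5 matches of ACGTG at Ldha to 0 at Gapdh, the member with the largest difference between the libraries. Capitals mark every match. The palindrome CACGTG holds ACGTG on both strands and counts as 2 overlapping matches. The windows lie, on the strand of the gene, at chr12:73907617-73907866 (+) for Hif1a, chr6:82774455-82774704 (-) for Hk2, chr7:126799255-126799504 (-) for Aldoa, chr6:125165774-125166023 (-) for Gapdh, chrX:106186850-106187099 (+) for Pgk1 and chr7:46845554-46845803 (+) for Ldha.
Hif1a: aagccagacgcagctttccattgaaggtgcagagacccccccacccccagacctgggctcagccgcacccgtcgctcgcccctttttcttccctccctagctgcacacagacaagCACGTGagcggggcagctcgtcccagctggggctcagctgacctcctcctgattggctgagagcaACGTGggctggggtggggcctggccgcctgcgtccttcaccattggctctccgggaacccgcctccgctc
Hk2: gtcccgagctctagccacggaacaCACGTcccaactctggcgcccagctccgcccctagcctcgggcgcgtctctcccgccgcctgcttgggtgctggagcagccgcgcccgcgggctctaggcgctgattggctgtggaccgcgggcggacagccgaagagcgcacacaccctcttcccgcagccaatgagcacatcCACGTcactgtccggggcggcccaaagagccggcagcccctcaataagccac
Aldoa: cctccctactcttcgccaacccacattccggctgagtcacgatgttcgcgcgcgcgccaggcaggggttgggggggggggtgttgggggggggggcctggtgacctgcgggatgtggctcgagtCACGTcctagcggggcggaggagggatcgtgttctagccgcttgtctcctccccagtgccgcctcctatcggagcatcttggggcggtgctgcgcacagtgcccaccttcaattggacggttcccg
Gapdh: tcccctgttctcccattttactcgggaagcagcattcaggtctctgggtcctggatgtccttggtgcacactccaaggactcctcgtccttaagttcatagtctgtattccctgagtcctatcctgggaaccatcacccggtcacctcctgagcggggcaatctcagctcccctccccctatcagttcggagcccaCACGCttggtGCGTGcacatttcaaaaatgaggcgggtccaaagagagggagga
Pgk1: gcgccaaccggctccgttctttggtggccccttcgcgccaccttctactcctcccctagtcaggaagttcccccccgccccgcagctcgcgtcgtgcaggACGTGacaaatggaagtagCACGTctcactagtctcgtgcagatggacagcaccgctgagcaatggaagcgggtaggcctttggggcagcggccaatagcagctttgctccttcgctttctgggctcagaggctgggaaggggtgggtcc
Ldha: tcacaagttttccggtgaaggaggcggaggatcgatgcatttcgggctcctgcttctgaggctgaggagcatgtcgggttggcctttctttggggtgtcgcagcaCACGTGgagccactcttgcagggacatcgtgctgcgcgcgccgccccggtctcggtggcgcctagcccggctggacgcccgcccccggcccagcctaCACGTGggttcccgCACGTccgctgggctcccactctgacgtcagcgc

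The 10 members have 16 such windows, since Aldoa and Eno1 have 3 and Pkm and Ldha 2 annotated starts. ACGTG was found in 8 of the 16 windows, GCGTG in 7 and either in 14, and by gene in 7, 5 and 10 of the 10 members. By gene, a match in any window counts, whereas the shares of all windows below are by window. For a gene with several starts the window with most matches of ACGTG is shown. The window shown for Aldoa and for Ldha holds ACGTG, while another window of each gene holds 0 matches of it. Of all 32851 RefSeq windows of the same length, 16.6% held ACGTG, 28.2% GCGTG and 38.6% either. Hif1a itself had 3 matches of ACGTG, the nearest beginning 70 bases before the start, and Hk2 and Pgk1 had 2 each. A match describes the letters of the window and no binding was measured.

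Hif1a was highest in DAM cells and lowest in border-associated macrophages of both libraries. In cells gated as homeostatic (at least 20 counts of homeostatic markers and hardly any of other states) it stood at 81.9 CPM [79.2, 84.8] in VEH and 82.1 [79.2, 85.1] in LEM. In cells gated as DAM (at least 8 counts from at least 3 of the late DAM markers Cst7, Lpl, Spp1, Itgax, Csf1, Gpnmb and Igf1) it stood at 319 CPM in VEH and 294 in LEM. The log2 ratio of DAM over homeostatic cells was 1.96 [1.87, 2.05] in VEH and 1.84 [1.76, 1.93] in LEM.

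The states followed each other in nearly the same order in both libraries. After DAM, Hif1a was highest in cells with fewer DAM markers (DAM intermediate), at 199 CPM in VEH and 165 in LEM, and in cells high in MHC class II, at 173 in both, where the intervals of these 2 states overlapped. Interferon-responsive cells (126 and 128 CPM), chemokine cells (125 and 131) and S phase cells (122 and 123) lay close together, and their intervals overlapped. Chemokine cells held at least 20 counts from a list of Il1b, chemokine and related genes, where 1 gene of the list could suffice. G2/M cells (98.5 and 87.1), Apoe-high cells (94.9 and 94.7) and ungated cells (91.4 and 89.2) came next, again with overlapping intervals. The lowest level was that of border-associated macrophages, at 66.9 CPM in VEH and 72.4 in LEM, over 43 and 91 cells, with intervals that held the homeostatic level. Cells gated as choroid plexus, of which there were 58 and 150, gave 113 and 80.4 CPM. At least 1 count of Hif1a was found in 33.9% of homeostatic and 87.8% of DAM cells in VEH, and in 33.3% and 90.9% in LEM. DAM cells were deeper, with medians of 11242 and 11534.5 counts against 5416.5 and 5184. After each cell was thinned to 2000 counts, the shares were 15.0% and 39.6% in VEH, and 14.5% and 42.5% in LEM. No cell type of these pools lacks these genes, so that a share due to free RNA could not be measured.

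Of the 9 glycolysis genes, 8 were higher in DAM than in homeostatic cells of both libraries, and Hk2 was not. With Hif1a, 9 of the 10 members were higher by a log2 ratio of at least 0.5 in both libraries and 0 were lower. The same rule called 8.04% of the 10562 genes with at least 5 CPM higher and 26.4% lower. The median log2 ratio of the members was 1.37 in VEH and 1.59 in LEM, and that of all genes was -0.34 in both. Relative to that shift, 9 members were again past 0.5, beside 14.2% of all genes higher and 8.26% lower, and the share of higher calls among all calls went from 23.4% to 63.3%.

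**Figure D1:**
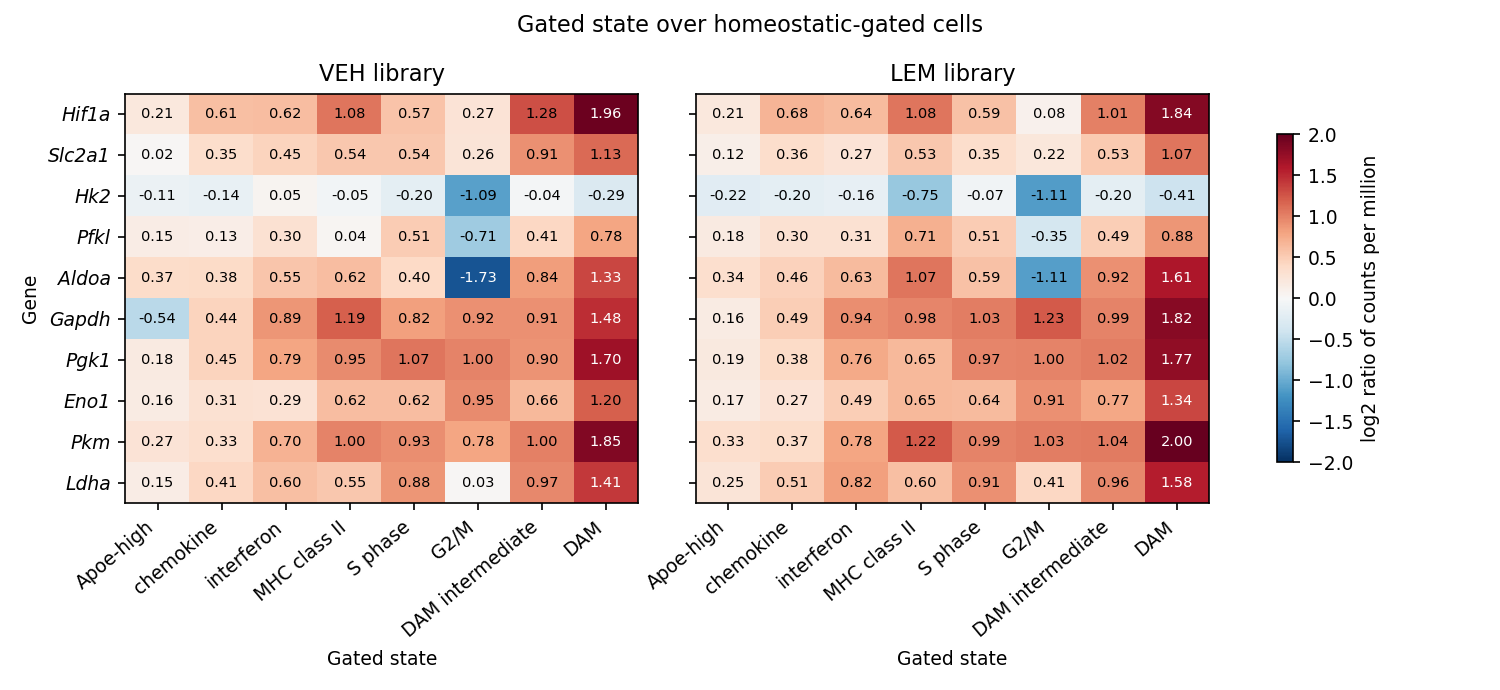
Log2 ratio of CPM in each gated state over homeostatic-gated cells (colour) for the 10 genes (vertical) and 8 gated states (horizontal), in the VEH library (left) and the LEM library (right). DAM cells were higher for every gene but Hk2, whose ratios were -0.29 and -0.41. In other states the libraries differed for single genes, as for Gapdh in Apoe-high cells (-0.54 and 0.16) and for Pfkl (0.04 and 0.71) and Hk2 (-0.05 and -0.75) in MHC class II cells.

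Glucose entry and the first committed steps differed among themselves. Slc2a1, the glucose transporter GLUT1, had 49 CPM in homeostatic and 107 in DAM cells of VEH, and 50.2 and 105 in LEM, with log2 ratios of 1.13 [0.99, 1.27] and 1.07 [0.94, 1.20]. Hk2, a hexokinase that traps glucose as glucose 6-phosphate, had 115 and 93.5 CPM in VEH and 118 and 88.9 in LEM. Its log2 ratios, -0.29 [-0.44, -0.15] and -0.41 [-0.54, -0.28], did not reach the 0.5 of the rule. Relative to the median of all genes they were 0.04 and -0.06. These values are small beside the width of the counting intervals, so that they give no direction in either library. Pfkl, the liver-type phosphofructokinase of the main regulated step, had 75.3 and 130 CPM in VEH and 76.8 and 142 in LEM, with log2 ratios of 0.78 [0.66, 0.91] and 0.88 [0.77, 0.99].

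Among the 9 glycolysis members, those of the later steps had the larger ratios, but that of Eno1 in VEH lay within the interval of Slc2a1. Genes outside the members did not all share this order, as the values of Ldhb here and of Eno3 and Gpi1 below show. Aldoa, the aldolase that cleaves fructose 1,6-bisphosphate, had 272 CPM in homeostatic and 682 in DAM cells of VEH, and 239 and 730 in LEM (log2 ratios 1.33 and 1.61). Pgk1, which makes the first ATP of the pathway, had 38.7 and 126 CPM in VEH and 36.5 and 125 in LEM (1.70 and 1.77). Eno1, the enolase, had 221 and 506 CPM in VEH and 214 and 542 in LEM (1.20 and 1.34). Pkm, pyruvate kinase, had the highest ratios of the 9 genes, at 158 and 567 CPM in VEH and 146 and 584 in LEM (1.85 [1.78, 1.91] and 2.0 [1.94, 2.06]). Ldha, which turns pyruvate into lactate, had 136 and 363 CPM in VEH and 127 and 379 in LEM (1.41 and 1.58). Ldhb, a lactate dehydrogenase gene outside the members, had 557 and 433 CPM in VEH and 566 and 504 in LEM. Its log2 ratios of -0.36 and -0.17 did not reach the rule. Summed over the 9 genes, the log2 ratio was 1.32 [1.29, 1.34] in VEH and 1.57 [1.55, 1.59] in LEM, and without Gapdh 1.27 and 1.42. In cells of 5000 to 15000 counts alone, the sum gave 1.26 and 1.54.

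The levels followed the number of DAM marker counts in a cell. From cells without such a count (12899 in VEH, 15834 in LEM) to cells with 50 or more (90 and 84), Hif1a went from 84.7 to 410 CPM in VEH and from 85.0 to 403 in LEM. Over the steps of 1 to 2, 3 to 7, 8 to 19 and 20 to 49 counts it stood at 97.0, 174, 261 and 307 CPM in VEH, and at 97.8, 146, 244 and 289 in LEM. Pkm went from 161 to 701 CPM and from 156 to 797 between the ends, and Hk2 from 113 to 80.8 and from 112 to 71.8. These were microglial cells without the interferon, chemokine, MHC class II and cycling gates, and deeper cells reach a higher score.

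**Figure D2:**
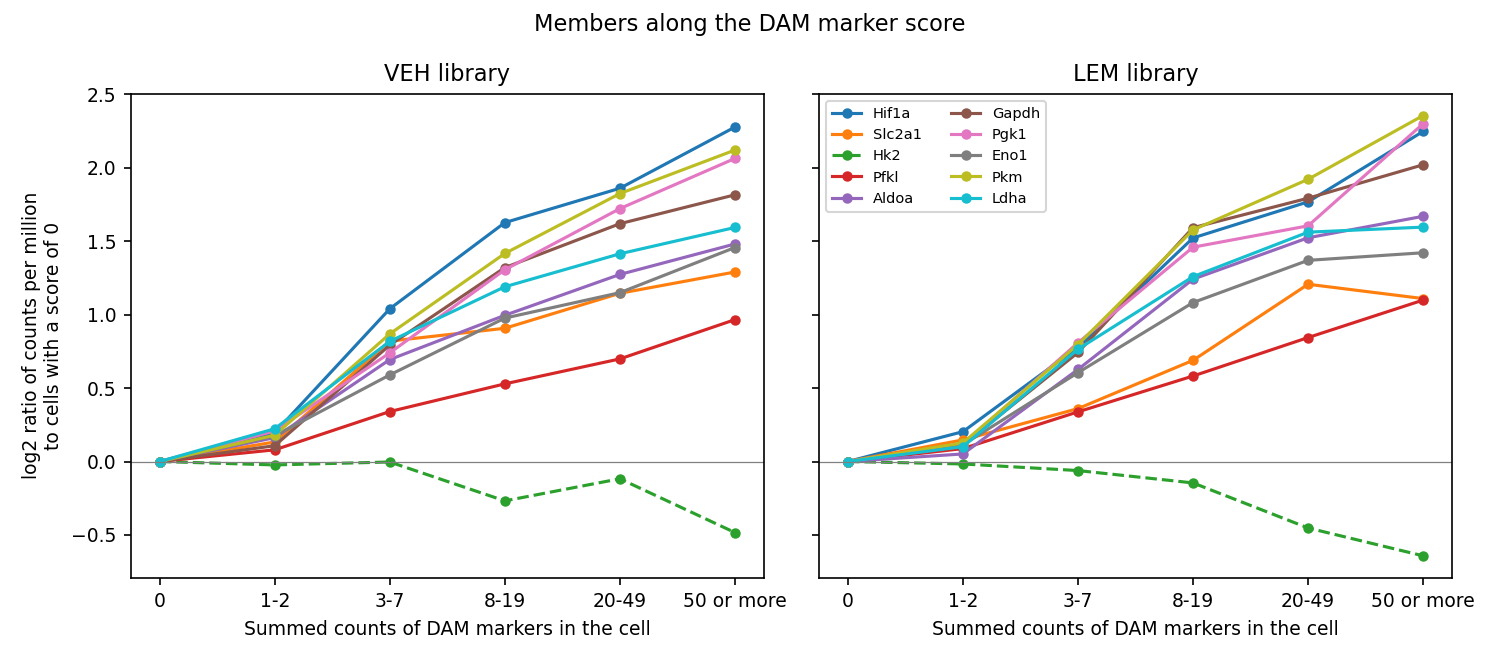
Log2 ratio of CPM to cells without DAM marker counts (vertical) against the summed counts of 7 late DAM markers in the cell (horizontal, 6 classes), 1 line per gene, VEH left and LEM right. All lines but that of Hk2 (dashed) were highest in the last or the last but 1 class, and Hk2 ended below its start in both libraries.

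Markers of choroid plexus, border-associated macrophages and astrocytes were low in DAM cells. The summed level of 8 choroid plexus markers was 1.65 CPM in VEH and 2.66 in LEM, that of 8 markers of border-associated macrophages 1.24 and 1.57, and that of 6 astrocyte markers 5.79 and 8.46, against 3.16 and 3.61 in homeostatic cells. Of 8 markers, 5 of choroid plexus and 4 of border-associated macrophages were at 0 in both libraries. The 6 oligodendrocyte markers summed to 53.6 and 66.6 CPM in DAM cells, against 59.6 and 63.0 in homeostatic cells, and the 4 endothelial markers to 15.9 and 13.9 against 15.4 and 11.7. Immediate early genes, which respond to cell dissociation, went the other way, from a summed 18837 CPM in homeostatic to 11090 in DAM cells of VEH and from 17094 to 9697 in LEM. Of the 18 measured, 13 were lower and 2 higher in DAM cells, beside 26.4% and 8.04% of all genes. Relative to the median of all genes 7 were lower and 3 higher, beside 8.26% and 14.2%. The part of these genes in the levels above was not tested.

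Of 21 other glycolysis genes, 19 had at least 5 CPM on either side, and 8 of them were higher and 5 lower in DAM cells of both libraries, beside 8.04% and 26.4% of all genes. Relative to the median of all genes, 9 were higher and Eno3 alone was lower, beside 14.2% and 8.26% of all genes. The other 4 lower calls thus depend on the scaling. Of the 8 higher genes, 4 reached 5 CPM only in DAM cells, so that they could be called in no other direction. The highest ratios were those of Slc2a6, a glucose transporter (0.22 and 9.93 CPM in VEH, 0.87 and 8.78 in LEM), of the enolase Eno2 (0.34 and 8.07, 0.28 and 4.70) and of the lactate exporter Slc16a3 (31.8 and 132, 28.3 and 109). The enolase Eno3 had the lowest ratio in both libraries (log2 ratio -1.81 in VEH and -1.93 in LEM). The other 4 lower genes were Slc2a3, the transporter GLUT3 (-0.94 and -0.64), Slc2a5, the fructose transporter GLUT5 (-0.77 and -0.85), Pfkfb4, a regulator of phosphofructokinase (-0.75 and -0.83), and the hexokinase Hk1 (-0.72 and -0.72), whose order differed between the libraries. Gpi1, Tpi1 and Pgam1, which catalyse the steps between those of the members, were chosen after their values were seen. Their log2 ratios were 1.16 and 1.16, 1.70 and 1.89, and 1.26 and 1.31.

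For the branches that leave the pathway the calls depended on the scaling. For the entry of pyruvate into mitochondria (pyruvate carriers and the pyruvate dehydrogenase complex with its kinases and phosphatases), 0 of 12 measured genes were past the rule in either direction. For the pentose phosphate pathway, 1 of 7 genes was higher, the transketolase Tkt (log2 ratio 0.63 in VEH and 0.58 in LEM). Both lists stood beside 8.04% of all genes higher and 26.4% lower. Relative to the median of all genes, 2 of the 12 (Mpc1 and Pdk3) and 4 of the 7 (G6pdx, Pgls, Pgd and Tkt) were higher and 0 lower, beside 14.2% and 8.26%.

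Among 12 measured genes that regulate HIF, 3 were higher and 2 lower in DAM cells, beside 8.04% and 26.4% of all genes. Of the 3, Egln3 and Arnt2 reached 5 CPM only there. Egln3, an oxygen-dependent prolyl hydroxylase that marks HIF-1α for degradation, went from 0.61 to 38.3 CPM in VEH and from 0.76 to 35.7 in LEM, with log2 ratios of 5.98 and 5.56. Arnt2 (3.67 and 3.81) and Elob (0.54 and 0.65), a subunit of the ligase that binds marked HIF-1α, were the others higher. Arnt, the partner of HIF-1α, was lower (-0.66 and -0.84), as was Hif1an, the asparagine hydroxylase that blocks its activity (-0.53 and -0.82). Relative to the median of all genes, 0 genes of the list were lower, Arnt and Hif1an included, and 4 were higher. All genes were 8.26% lower and 14.2% higher by that scaling. The additional higher gene of the list was the prolyl hydroxylase Egln1.

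Of 14 measured HIF target genes outside glycolysis, 6 were higher and 1 lower, beside 8.04% and 26.4% of all genes (9 and 1 relative to the median of all genes, beside 14.2% and 8.26%). Of the 6, Bhlhe40 and Anxa2 reached 5 CPM only in DAM cells. Mif, a cytokine, went from 103 CPM in homeostatic to 504 in DAM cells of VEH and from 106 to 568 in LEM. Bhlhe40, a transcription factor, stood at 0.12 and 42.6 CPM in VEH and at 0.03 and 38.6 in LEM, and Anxa2, annexin A2, at 0.24 and 14.1 and at 0.59 and 11.8. Ddit4, an inhibitor of mTORC1, was the lower gene (-1.75 and -1.41). Bnip3 (1.01 and 1.20), Plin2 (1.48 and 1.48) and Ankrd37 (1.12 and 0.74) were the remaining higher genes.

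Before centring on the median of all genes, fewer members were called in the other states than in DAM cells. In DAM intermediate cells 8 of 10 were higher and 0 lower, where 4.15% of all genes were higher and 4.10% lower. Relative to the median of all genes the share of higher calls there went from 50.3% to 73.8%. By that scaling 9 members were higher and 0 lower, beside 5.69% of all genes higher and 2.02% lower. In MHC class II cells 8 were higher (5.56% of all genes, 8.29% lower), in S phase cells 7 (6.26% and 1.88%) and in interferon-responsive cells 6 (4.13% and 3.22%), with 0 lower in each. Other markers moved with these states. The 7 markers of the DAM gate, of which the homeostatic gate admits at most 1 count, summed to 20.1 CPM in homeostatic cells of VEH and 24.7 of LEM, against 651 and 503 in MHC class II, 597 and 431 in interferon-responsive and 311 and 405 in S phase cells. Markers of border-associated macrophages summed to 60.3 and 17.8 CPM in MHC class II cells, against 2.55 and 1.90 in homeostatic cells. The 6 markers of monocytes and neutrophils summed to 27.0 and 54.7 CPM in MHC class II and 29.0 and 31.7 in interferon-responsive cells, against 6.44 and 7.13. The part of these markers in the counts of members was not tested. In the interferon and MHC class II cells the share of higher calls went from 56.2% to 82.3% and from 40.2% to 65.7% after that centring, and the counts of members were equal. After it 5.40% and 7.53% of all genes were higher, and 1.16% and 3.94% lower. In chemokine cells Hif1a alone was higher (0.61 and 0.68), where 1.55% of all genes were higher and 0.951% lower. After centring the share of higher calls there went from 61.9% to 79.7%. By that scaling 2 members were higher, beside 2.04% of all genes higher and 0.519% lower. In Apoe-high cells 0 members were called, as were 0.310% of all genes higher and 0.940% lower (24.8% of calls higher, 55.4% after centring). The 7 DAM markers summed to 78.7 CPM in VEH and 88.0 in LEM in chemokine cells and to 50.5 and 56.6 in Apoe-high cells, and 5 of 19 immediate early genes were higher in chemokine cells. Their part was not tested.

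In G2/M cells, of which there were 142 in VEH and 217 in LEM, members were called in both directions. The members Gapdh (log2 ratio 0.92 in VEH and 1.23 in LEM), Pgk1 (1.00 and 1.00), Eno1 (0.95 and 0.91) and Pkm (0.78 and 1.03) were higher than in homeostatic cells. Aldoa was lower, at 82.0 CPM against 272 in VEH and 111 against 239 in LEM (-1.73 and -1.11). Hk2 was also lower, at 53.7 against 115 and 54.6 against 118 (-1.09 and -1.11). These 4 higher and 2 lower members stood beside 21.0% and 13% of all genes. Markers moved with this gate too. In G2/M cells the 7 DAM markers summed to 276 CPM in VEH and 466 in LEM and those of monocytes and neutrophils to 50.3 and 71.9, and 10 of 18 immediate early and 5 of 7 homeostatic genes were lower. Their part was not tested. In S phase cells Aldoa had log2 ratios of 0.40 and 0.59. The table holds a second row under the name Aldoa, and the annotation has 2 genes of that name side by side on chromosome 7. That row stood at 0.92 CPM in homeostatic and 15.8 in G2/M cells of VEH, and at 1.26 and 16.0 in LEM, so that the rows of this name went in opposite directions.

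Over all cells of a library, 9 of the 10 members had nearly equal levels in VEH and LEM and Gapdh had not. Hif1a stood at 105.9 CPM [104.0, 107.7] in VEH and 105.0 [103.4, 106.6] in LEM, and their log2 ratio was -0.01 [-0.04, 0.02]. It was 116 CPM in female and 99.6 in male cells of VEH, and 108 and 105 in those of LEM. Slc2a1 had 56.3 and 57.8 CPM, Hk2 110 and 108, Pfkl 81.7 and 87.1, and Aldoa 324 and 308. Pgk1 had 48.5 and 48.2, Eno1 254 and 260, Pkm 200 and 198, and Ldha 162 and 163. The log2 ratios of these 9 lay between -0.08 and 0.09. The make-up of the libraries differed, with 40.2% of VEH and 27.3% of LEM cells gated as homeostatic and 7.65% and 14.2% as Apoe-high. Within the 10 microglial sets of cells, Pfkl was higher in LEM in 10, Pgk1 in 1 and Hif1a in 5. These sets come from 1 library per treatment, and the share of all genes with such counts was not computed. Over all cells Pfkl had a log2 ratio of -0.02 [-0.09, 0.04] in female and 0.14 [0.09, 0.20] in male cells. Aldoa had a log2 ratio of -0.18 [-0.23, -0.14] in homeostatic and -0.21 [-0.27, -0.16] in Apoe-high cells, and Hif1a of -0.27 [-0.41, -0.13] in DAM intermediate cells. For each of the 9 the ratio over all cells was smaller than the larger of the ratios of female to male cells within a library, which reached 0.22 for Hif1a.

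Gapdh, the dehydrogenase that oxidises glyceraldehyde 3-phosphate and a common reference gene, stood at 304 CPM [301, 307] in VEH and 729 [725, 733] in LEM. This was 2.40 times as high in LEM, a log2 ratio of 1.26 [1.25, 1.28]. In female cells it was 252 CPM in VEH and 860 in LEM (1.77), and in male cells 337 and 618 (0.87). Both LEM values lay above both VEH values, and female cells were lower than male cells in VEH (log2 ratio -0.42) but higher in LEM (0.48). Over all 10331 genes with at least 5 CPM, the rule of a log2 ratio of at least 0.25 in the same direction in both sexes called 3.47% higher and 2.94% lower, and 1 of the 10 members. The median of all genes was 0.01. Gapdh had rank 24 by its ratio, and among the 1761 genes with at least 100 CPM in a library 1 other had a ratio as high.

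**Figure D3:**
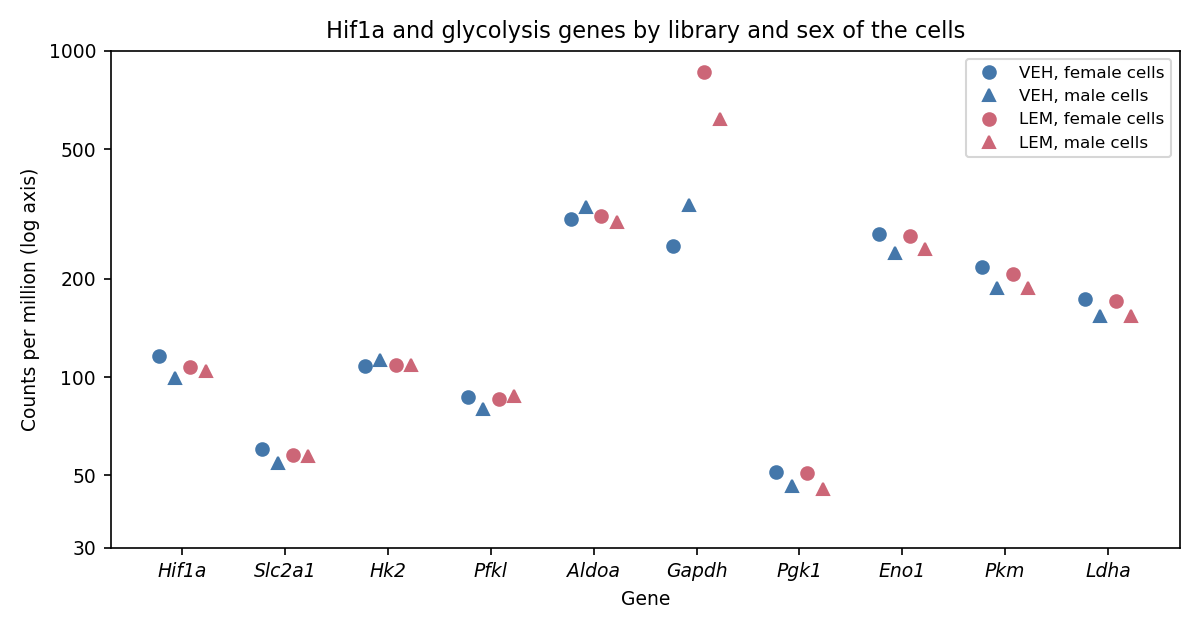
CPM (vertical, log axis) of Hif1a and the 9 glycolysis genes (horizontal) in female and male cells of the VEH and LEM libraries, 1 point for each of the 4 pools of cells. The 4 points of each gene lay close together except for Gapdh, whose LEM points (618 and 860) were above its VEH points (252 and 337).

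The higher level of Gapdh was found in each state. It was higher in LEM in 12 of 12 states, with log2 ratios from 0.73 to 1.78, and the median over the 10 microglial sets was 1.18. Homeostatic cells had 261 CPM in VEH and 553 in LEM (1.08, 1.68 in female and 0.37 in male cells). DAM cells had 727 and 1954 (1.43) and Apoe-high cells 180 and 618 (1.78). Choroid plexus cells, whose markers were higher in LEM, had 729 and 1780 (1.29). Within a library, the log2 ratio of Gapdh in DAM over homeostatic cells was 1.48 [1.42, 1.53] in VEH and 1.82 [1.79, 1.85] in LEM. In Apoe-high over homeostatic cells it was -0.54 [-0.60, -0.47] in VEH and 0.16 [0.13, 0.19] in LEM, so that this direction differed between the libraries. The sexes were not equally present in these 2 states. Apoe-high cells were 174 female and 994 male in VEH, and 399 and 2427 in LEM. Homeostatic cells were 2751 female and 3376 male in VEH, and 3220 and 2424 in LEM. The part of sex in these ratios was not tested.

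**Figure D4:**
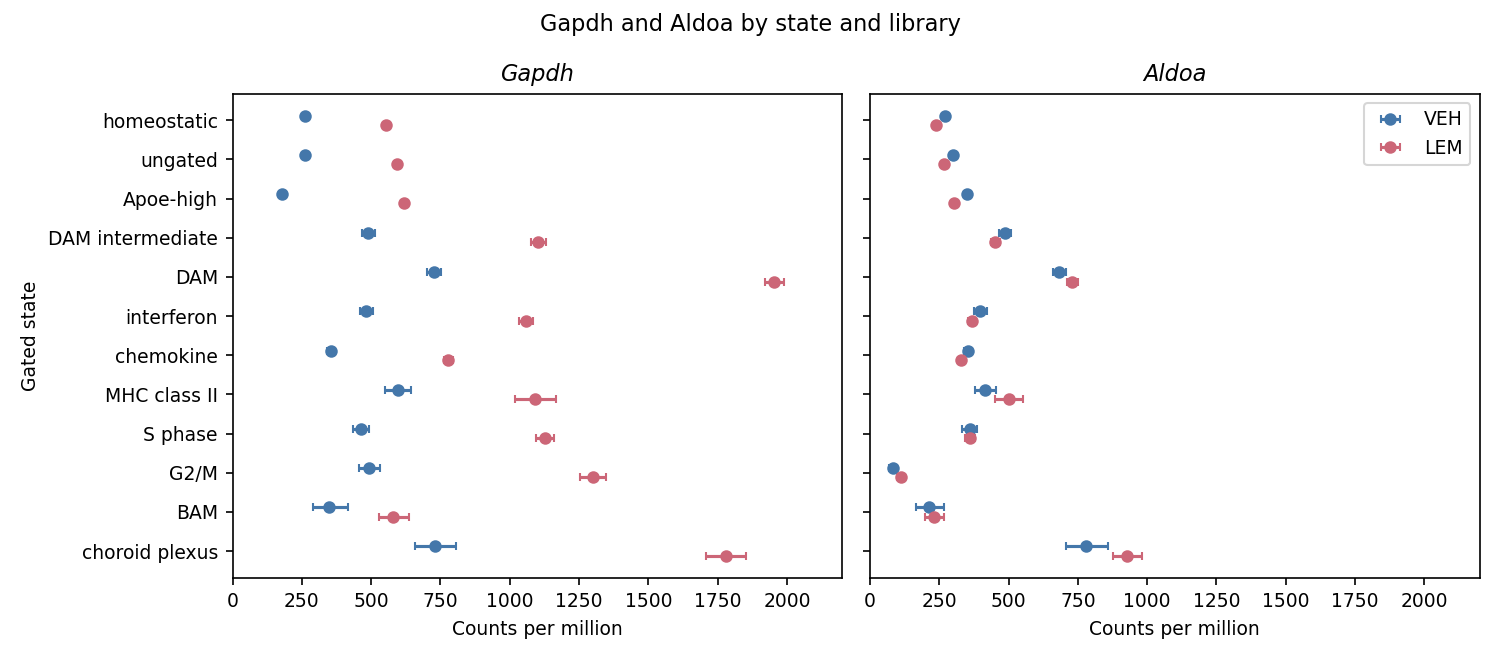
CPM (horizontal) of Aldoa and Gapdh by gated state (vertical) in the VEH and LEM libraries, with exact 95% intervals of the counts as bars. Gapdh was higher in LEM in 12 of 12 states, among them homeostatic (261 against 553 CPM) and DAM cells (727 against 1954). The log2 ratios of Aldoa lay between -0.21 and 0.44.

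At least 1 count of Gapdh was found in 57.1% of VEH and 84.7% of LEM cells, and in 34.3% and 62.8% after thinning. Gapdh made up 19.7% of the counts of the 9 glycolysis genes in VEH and 37.2% in LEM. For that reason the sum of the 9 genes was 1540 CPM in VEH and 1959 in LEM (log2 ratio 0.35 [0.34, 0.35]), whereas the sum without Gapdh was 1237 and 1230 (-0.01 [-0.02, 0.00]).

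The gene lies at chr6:125161715-125166467 on the minus strand (GRCm38, GENCODE M21), and its neighbours did not share the difference. Of 32 measured genes within 1 Mb, 1 was higher in LEM, Cd9 at 328 kb (0.32), and 1 was lower, Pianp at -170 kb (-2.07), beside 3.47% and 2.94% of all genes. The nearest genes, Iffo1 and Mrpl51, had log2 ratios of 0.14 and 0.07. Tpi1, another glycolysis gene, lies at -352 kb and had 0.09. The median of the 32 genes was 0.05.

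**Figure D5:**
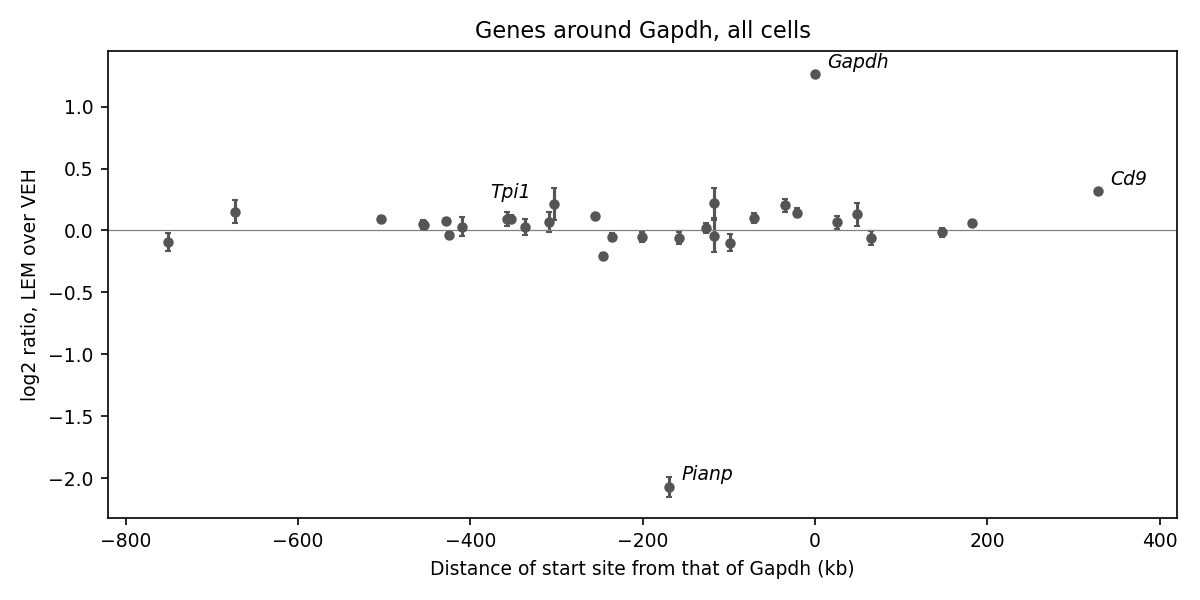
Log2 ratio of LEM over VEH (vertical) of Gapdh and 32 measured genes within 1 Mb against the distance of their start sites from that of Gapdh in kb (horizontal), with exact 95% intervals of the counts as bars. Apart from Gapdh (1.26), Cd9 (0.32) and Pianp (-2.07), the genes lay within 0.25 of 0.

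Gapdh counts also depend on how reads were assigned. Of the 50-base stretches of its longest annotated transcript, 82.5% occur in transcripts of other annotated genes, 218 genes in all, of which 5 have a row in the table. The share was 72.2% for Eno1 (9 genes), 68.0% for Pgk1 (5 genes), 34.4% for Pkm (8 genes) and 0% for Slc2a1 and Hk2. The first 500 bases are the end that 5′ libraries read. Over them the share was 69.8% for Pgk1, 60.6% for Gapdh, 42.4% for Eno1, 21.2% for Ldha and 14.2% for Pkm. Eno1b, the gene that shares most with Eno1, has a row and stood at 4.63 CPM in VEH and 2.28 in LEM, under the minimum of 5 CPM (log2 ratio -1.02). How reads of these copies were assigned was not tested. The second row under the name Aldoa held 1.25 CPM in VEH and 1.57 in LEM over all cells.

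The lists of glycolysis and HIF genes had few calls between the libraries, where 3.47% of all genes were higher and 2.94% lower, so that 0 or 1 call in a list of this length says little. Of 15 other glycolysis genes measured, 1 was higher in LEM, Eno3 (19.6 CPM in VEH and 28.1 in LEM, log2 ratio 0.52), and 1 was lower, Pfkm, a phosphofructokinase (5.93 and 4.50, -0.40). For pyruvate entry 0 of 12 genes passed the rule, for the pentose phosphate pathway 0 of 7, for HIF regulation 0 of 10 and for the other HIF targets 0 of 12. Of the immediate early genes, 9 of 18 were lower in LEM and 0 higher. The 7 markers of the DAM gate summed to 213 CPM in VEH and 210 in LEM, but single markers went in opposite directions. Cst7 stood at 111 and 91.4 CPM, Spp1 at 11.3 and 19.9 and Itgax at 25.2 and 32.5. Of 6 DAM markers measured, Cd9 included, 3 were higher in LEM and 1 lower. The endothelial markers summed to 14.8 and 11.6, and the choroid plexus markers differed as given above.

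Genes were ranked by likeness across 38 pools of cells by state, library and sex. Marker genes of the gates, Apoe and the sex-linked genes were left out of this ranking. Among the genes ranked, Mif was most like the mean of the 9 glycolysis genes, with a Pearson correlation of 0.98 of log2(CPM + 1). Gpi1 (0.94), Rpl8, Cstb and Akr1a1 (0.93 each) followed. Of the genes ranked, those most like Hif1a were Ctsb, cathepsin B (0.97), Ctsz, cathepsin Z (0.94), and Npc2, Syngr1 and Tyrobp (0.93 each). Among the members, Hif1a had its highest correlation with Ldha (0.89) and Slc2a1 (0.87) and its lowest with Hk2 (0.09) and Gapdh (0.36). Pools of 1 library share that library, pools of 1 state share a gate and a depth, and the values are descriptions.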

How the data were processed

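Sorted microglia of 2 pools of 5 PSAPP mice, VEH or LEM, gave 1 library each. The authors counted molecules with Cell Ranger 8.0.0 on the mm10 transcriptome, named SoupX for free RNA and filtered cells on genes, counts and mitochondrial share. The table they deposited holds raw counts, all whole, of each gene in 42766 cells, somewhat fewer than the study states. Whether SoupX's correction is included cannot be told. 0 columns of cells were unmatched.

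Counts were summed per state, library and sex and divided by their totals (CPM, from 116229678 and 160752298 counts). Log2 ratios have exact conditional binomial intervals, CPM Poisson and shares Clopper-Pearson intervals. Only the intervals of LEM over VEH ratios were tried on simulated counts. Those counts were Poisson, so that they held no variation between cells or mice. States were gated in order on raw marker counts, with thresholds chosen after the distributions were seen. Clec7a was not analysed here and Cd9 was left out of the DAM gate. Doublets were kept, and in an alternative the 10% of cells with the highest Scrublet scores were left out.

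A gene passed the rule at a log2 ratio of at least 0.25 in the same direction in both sexes (LEM over VEH), or of at least 0.5 in the same direction in both libraries (state over homeostatic), among genes of at least 5 CPM on either side. Of a list, at most the 3 highest and 3 lowest genes were named unless stated or unless a count was small. Likeness used pools of at least 50 cells and genes of at least 20 CPM, without the gate markers, Apoe and the sex-linked genes. The members and lists were chosen with earlier results of these data known. Alternatives were other scalings, each sex, thinned cells, no doublets, no other cell types, equal weights of states, stricter gates, gates on thinned cells, other CPM minimums and, added after seeing the data, cells of 5000 to 15000 counts. Python 3.11.15, numpy 2.4.6, scipy 1.17.1, scanpy 1.11.5 and matplotlib 3.10.9 were used.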

Additional observations from a re-analysis of the deposited data

Results flagged for a closer look

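Hif1a was lower in LEM than in VEH in female cells (log2 ratio -0.11) and higher in male cells (0.070). The directions are opposite, the difference was not tested, and each sex comes from an unknown number of the 5 mice of a pool.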

How the results depend on the processing

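No paired analysis was possible because each treatment has 1 library and the labels carry no replicate numbers. For the sum of the 9 glycolysis genes, LEM over VEH (0.35), the alternatives gave 0.34 without the 20 most abundant genes, 0.33 with size factors from the median of ratios, 0.34 as the mean over cells, 0.47 in female and 0.22 in male cells, 0.32 after thinning, 0.34 without other cell types, 0.39 with equal weights of states and 0.34 in cells of 5000 to 15000 counts. The median over the 9 genes was 0.0050 and the sum without Gapdh -0.0080, with an interval that holds 0. For Hif1a (-0.01) the values were -0.11 in female and 0.070 in male cells and -0.082 with equal weights. For the sum in DAM over homeostatic cells, the VEH value of 1.32 became 1.66 by the median of ratios, 1.34 as the mean over cells, 1.36 without doublets, 1.38 in female cells, 1.35 after thinning, 1.27 without Gapdh, 1.39 with stricter gates, 1.35 with gates on thinned cells and 1.26 in cells of 5000 to 15000 counts. The LEM value of 1.57 became 1.92 by the median of ratios, 1.64 as the mean over cells, 1.64 without doublets, 1.70 in male cells, 1.42 without Gapdh, 1.65 with stricter gates and 1.54 in cells of 5000 to 15000 counts. For Hif1a the VEH value of 1.96 became 2.30 by the median of ratios and 2.13 with stricter gates, and the LEM value of 1.84 became 2.19, 1.97 in female cells, 2.02 with stricter gates and 1.94 in cells of 5000 to 15000 counts. The causes were not tested. For single members, 186 of 270 values moved by less than their counting interval and 84 by more. Of these 270 values, 160 were of DAM over homeostatic cells in genes other than Hk2, and 160 of 160 had the sign of the value given first. They come from the same 2 libraries and are not independent. Hk2 had 0.05 in VEH and -0.06 in LEM by the median of ratios. Gapdh, LEM over VEH, ranged from 0.87 to 1.77 and the other members from -0.15 to 0.16. With minimums of 1 and 20 CPM, 6.20% and 1.97% of all genes were higher and 4.50% and 1.94% lower in LEM, and 9.41% and 8.16% higher and 26.7% and 25.8% lower in DAM cells.

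Counting error is small at these depths except in states of few cells. What limits the treatment values is the single library and unknown shares of the mice in each pool. The libraries also differed in choroid plexus content, in the shares of homeostatic and Apoe-high cells and in immediate early genes. Values without other cell types and with equal weights of states are given above. The part of the immediate early genes was not tested. Gates use raw counts and DAM cells are deeper, and the part of the gate in that depth was not tested. The reads of near-identical copies of Gapdh, Eno1 and Pgk1 cannot be followed in a count table.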

Other observations

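Mpc1, a subunit of the mitochondrial pyruvate carrier, was chosen after its values were seen. Its level over all cells was 175 CPM in VEH and 177 in LEM (log2 ratio 0.01), but LEM over VEH was 0.55 in female and -0.33 in male cells. The difference between the sexes was not tested.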
